A study of Mus musculus with 8 samples.

Results

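The circular RNAs (circRNAs) whose ends lie 10 to 50 kb apart in the mouse genome were examined in the spinal cord after a contusion injury. They were taken as the non-control probes named by chromosome, start, end and strand, with an end minus start of at least 10000 and under 50000 bases. The array carried 15175 of them among 37852 circRNAs, each with 1 probe of 60 bases. The other 22677 circRNAs, 3484 under 1 kb, 14639 from 1 to 10 kb and 4554 of 50 kb or more, served as the comparison. Total RNA came from the T9-T10 cord segments of female mice aged 8 weeks, 4 with a contusion and 4 without one. The labels give no strain, and no genetic alteration is named in any group. They differ on the time, since every contusion title gives 3 days whereas the descriptions of contusion replicates 1 to 4 give 3, 4, 5 and 6 days. They also differ on the controls, called sham in the study's design and normal cord in the sample descriptions. The study's design counts 8 mice for the 8 arrays, and pooling is not mentioned.

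A circRNA forms when the spliceosome joins the end of a downstream exon back to the start of an upstream exon, which closes the exons between them into a ring. Long flanking introns, often with inverted repeats, and RNA-binding proteins such as quaking favour that reaction, while ADAR and DHX9 work against it. Rings lack free ends, resist exonucleases and are long-lived, and they are abundant in neurons, where many come from genes of the synapse. The genomic span is not the length of the ring, because introns between the exons are usually removed.

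A probe can tell a ring from the linear messenger RNA of its gene only through the back-splice junction, so the probe sequences are shown first. Where circRNAs share a start or an end, the bases that their probes share place the junction within the probe. For 12780 of the 15175 (84.2%) another circRNA on the array had the same start or end, and the junction could be bounded on both sides for 5854, within 3 bases in 96.9% of these. The 13 probes below carry the results described further on: rings that rose, rings that fell, and rings of Slc8a1 that moved in opposite directions. Lower case marks the end of the downstream exon and capitals mark the bases after the back-splice junction, from the start of the upstream exon, to within 3 bases. Positions are those of the array's own names. The scanner file headers name the mm9 build. The circRNA positions were read as GRCm38 because of the share inside its genes, given with the processing. Whether starts were counted from 0 or from 1 was not given in the sources used here.
Knl1 chr2:119077898-119088886, plus strand: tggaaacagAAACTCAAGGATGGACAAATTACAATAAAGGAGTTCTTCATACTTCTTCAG
Diaph3 chr14:86852072-86866642, minus strand: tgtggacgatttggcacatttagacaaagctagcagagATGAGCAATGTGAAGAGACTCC
Knstrn chr2:118818835-118834219, plus strand: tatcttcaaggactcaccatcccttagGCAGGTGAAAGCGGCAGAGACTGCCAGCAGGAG
Fn1 chr1:71605817-71624344, minus strand: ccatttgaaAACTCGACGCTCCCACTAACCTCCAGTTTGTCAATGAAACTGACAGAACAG
Kcnh7 chr2:62764571-62788015, minus strand: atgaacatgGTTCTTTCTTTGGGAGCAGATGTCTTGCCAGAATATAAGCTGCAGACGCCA
Ano3 chr2:110738771-110783765, minus strand: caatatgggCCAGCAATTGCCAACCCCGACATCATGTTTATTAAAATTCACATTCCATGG
Glrb chr3:80850908-80879732, minus strand: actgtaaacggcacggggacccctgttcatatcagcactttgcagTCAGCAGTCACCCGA
Rims1 chr1:22346293-22379540, minus strand: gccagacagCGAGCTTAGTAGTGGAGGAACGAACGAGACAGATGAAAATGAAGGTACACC
Ryr2 chr13:11680966-11692716, minus strand: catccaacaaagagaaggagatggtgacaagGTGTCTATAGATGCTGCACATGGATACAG
Slc8a1 chr17:81428182-81445593, minus strand: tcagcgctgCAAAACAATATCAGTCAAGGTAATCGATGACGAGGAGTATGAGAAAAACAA
Slc8a1 chr17:81408067-81445593, minus strand: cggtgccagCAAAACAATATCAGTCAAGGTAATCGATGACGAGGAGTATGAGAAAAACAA
Slc8a1 chr17:81428182-81444972, minus strand: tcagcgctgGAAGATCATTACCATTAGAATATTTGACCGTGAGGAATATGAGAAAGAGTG
Slc8a1 chr17:81408067-81444972, minus strand: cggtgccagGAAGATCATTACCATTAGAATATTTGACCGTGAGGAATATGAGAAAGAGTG

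Many probes lie mostly within 1 exon. The junction was settled to the base for 2557 probes, and 1380 of these (54.0%) had 9 to 11 bases on the shorter side, as in the Knl1 and Fn1 probes. Only 27.1% had 20 to 30 bases there, as in the Ryr2 probe. No settled probe had fewer than 9. In 82.0% the longer part lay in the upstream exon. Rings with the same start therefore share most of their probe: 6416 of the 15175 (42.3%) shared a run of at least 40 bases with another circRNA probe. The labels' protocols describe labelling of total RNA and name no exonuclease treatment. Whether linear RNA contributed to these signals was not tested, and the values by probe layout are given beside the comparison with host messenger RNAs.

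Across the 8 arrays 72.9% to 75.4% of probes were well above background, and circRNA levels of 2 arrays of a group correlated at 0.987 to 0.992. A level here is the log2 signal minus the array's 75th percentile, so 0 is the brightness of that percentile. Neuron markers, summed on the linear scale and given as log2, lay at 10.1 to 10.4 in controls and 9.40 to 9.62 after contusion, with 7 of 7 markers called lower. Macrophage markers lay at 4.06 to 6.34 against 8.54 to 8.90 (6 of 6 called higher), and proliferation markers at 0.65 to 3.27 against 5.56 to 6.34 (4 of 4). The oligodendrocyte markers, at 10.6 to 10.9 against 10.4 to 10.5, had none of 5 called. Skeletal muscle markers lay at 3.80 to 4.96 in controls. After contusion they stood at 7.72 for replicate 1, 5.82 for replicate 2, 4.33 for replicate 3 and 4.32 for replicate 4, with none of 9 called. All markers of these lists were measured. In bulk tissue fewer cells of a type and less RNA per cell cannot be told apart.

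Of the 15175 circRNAs, 14173 (93.4%) passed the filter on dim probes, which asks that 4 or more of the 8 arrays flag the signal as well above background. At an adjusted p under 0.05 (limma, adjusted over all 89087 features tested), 5950 were called (42.0%), 2048 higher after contusion (14.5%) and 3902 lower (27.5%). Among circRNAs of other spans 41.9% were called, 17.4% higher and 24.5% lower. Large changes ran mostly upward: of the 14173 tested, 276 rose and 92 fell at least 2-fold. Among the 21442 tested circRNAs of other spans, 675 (3.15%) rose and 120 (0.56%) fell that far. Increases of this size were thus a smaller share here than among the other spans, and decreases a slightly larger one. The 276 came from 133 host genes and the 92 from 60. The groups did not overlap for 6167 circRNAs (43.5%, against 43.8% of other spans). The median difference was -0.07, against -0.03 for the other spans, on the log2 scale of contusion minus control used throughout.

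From 10 to 50 kb the share called higher fell with the genomic span, and the share called lower was largest at 40 to 50 kb. The share called higher was 16.8% at 10 to 15 kb, 15.7% at 15 to 20 kb, 13.3% at 20 to 30 kb, 12.3% at 30 to 40 kb and 10.8% at 40 to 50 kb. The share called lower over the same spans was 23.4%, 26.4%, 29.4%, 29.4% and 35.1%. Outside these limits the shares were 18.6% higher and 22.3% lower under 1 kb, 19.6% and 21.1% at 1 to 10 kb, and 9.21% higher and 37.6% lower at 50 kb or more. The length of the host gene moved with the span, from a median of 91329 bases at 10 to 15 kb to 217914 at 40 to 50 kb. The median change of the host messenger RNA moved with it too, from -0.09 to -0.20. Their part in the trend was not tested. At the limits, a Csad ring of 10001 bases differed by 0.08 and a Cep128 ring of the same span by 0.76, while just outside them rings of Ilkap and Mef2c differed by 0.14 and 0.86. Just inside the upper limit rings of Gphn and Smoc2 differed by -0.60 and 0.44, and just outside it rings of Vta1 and Ctif differed by 0.01 and -0.41.

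**Figure D1:**
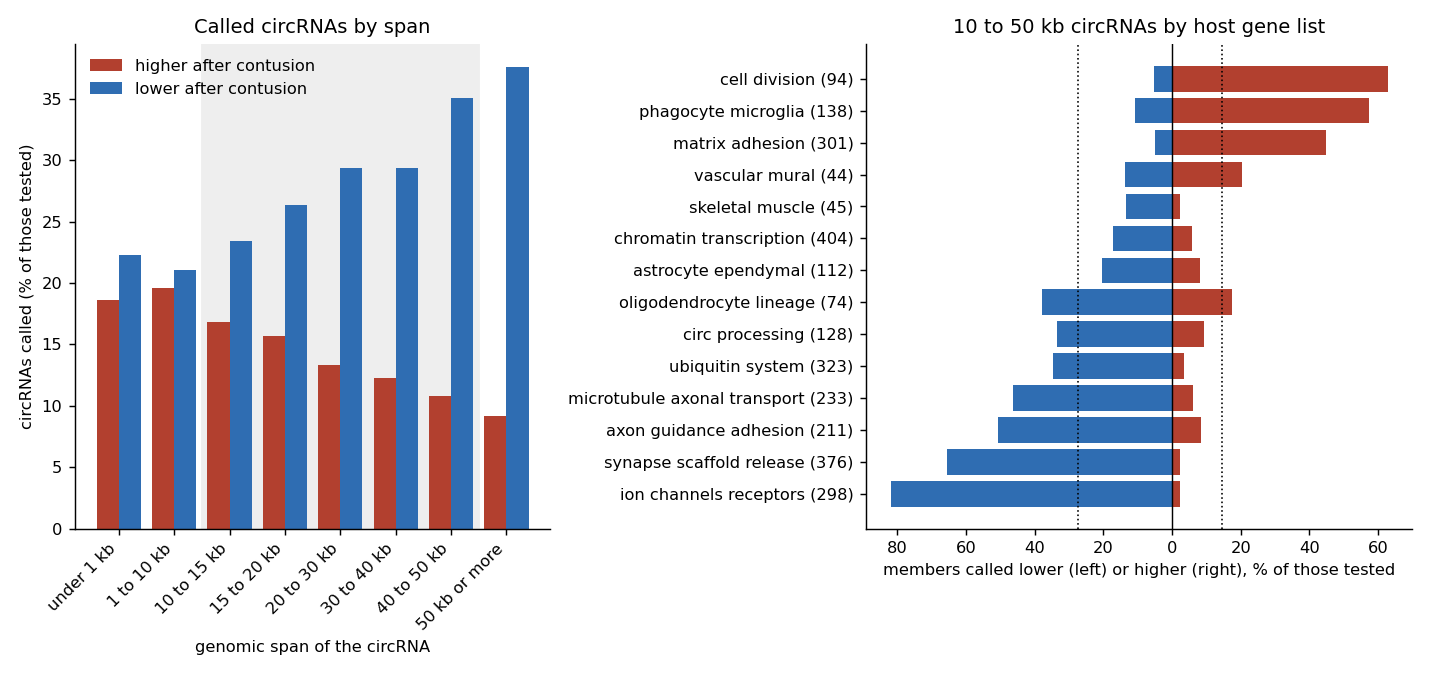
Share of tested circRNAs called higher (red) or lower (blue) after contusion at an adjusted p under 0.05, by genomic span on the left (10 to 50 kb shaded) and by list of host genes on the right, with the number tested in parentheses and dotted lines at the 14.5% and 27.5% of all 10 to 50 kb circRNAs. The lower share reached 35.1% at 40 to 50 kb, and the lists ran from 81.9% lower for ion channels to 62.8% higher for cell division.

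The largest increases were rings of genes of cell division, of the injury matrix and of phagocytes. The Uhrf1 ring (chr17:56305086-56322125, inside the gene of a protein that keeps DNA methylation through replication) had levels of -5.50, -6.54, -5.26 and -6.41 in controls and -2.06, -2.0, -1.59 and -1.72 after contusion. The groups were far apart, although only 1 control array was well above background, and the difference was 4.09 ± 0.29 (SE, n = 4 and 4, adjusted p = 0.000112). The Tpx2 ring (chr2:152854921-152869775, a spindle assembly factor) was well above background on every array. It measured -2.40, -3.62, -3.22 and -4.38 in controls and -0.35, -0.71, 0.08 and 0.05 after contusion, a difference of 3.17 ± 0.39 (adjusted p = 0.000517). Every contusion array lay above every control, as the choice of these rings required.

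The Nusap1 ring (chr2:119624118-119639734, a microtubule-binding protein of the mitotic spindle), also measured on all arrays, went from -2.74, -3.82, -3.31 and -4.50 to -0.63, -0.86, -0.28 and -0.37, a difference of 3.06 ± 0.34 (adjusted p = 0.00036). Control 1 was the highest control for each of Tpx2 and Nusap1. The Tnc ring (chr4:63970314-63982923, tenascin-C, a matrix glycoprotein of wounds) differed by 3.59 ± 0.49 (adjusted p = 0.000774), with 2 control arrays well above background. The Cd36 ring (chr5:17811181-17835671, a scavenger receptor for lipids) differed by 3.43 ± 0.50 (adjusted p = 0.00106), with 3 control arrays well above background.

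For 6 of the 12 no control array was well above background, so that only a lower bound of the change can be given, set against the lowest signal that counted as well above background. All 6 passed the filter on dim probes through the contusion arrays alone, so no p-value is given for their change. The Knl1 ring shown above (a kinetochore scaffold) was at -5.54, -7.43, -6.31 and -7.71 in controls and -3.33, -3.22, -3.24 and -2.85 after contusion, at least 4.96-fold higher. The Brip1 ring (chr11:86135257-86157880, a DNA repair helicase) was at least 6.33-fold higher. The Diaph3 ring (a formin that nucleates actin) was at least 5.39-fold higher and the Osmr ring (the oncostatin M receptor, chr15:6823552-6837069) at least 4.26-fold. Rings of Cit and Melk, both kinases of dividing cells, were at least 3.52-fold and 3.46-fold higher. The Knstrn ring (chr2:118817864-118834219, a spindle protein) differed by 3.35 ± 0.46 (adjusted p = 0.000824), with 3 control arrays well above background.

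The largest decreases were smaller, and several were of dim probes. The Kcnh7 ring, of an ether-a-go-go type potassium channel, measured -2.48, -2.38, -2.45 and -2.56 in controls and -3.76, -3.63, -3.85 and -4.16 after contusion. All arrays were well above background and the groups were apart by more than 1 log2 unit, with a difference of -1.38 ± 0.11 (adjusted p = 0.000145). The Strip2 ring (chr6:29939037-29953453) went from -3.18, -3.10, -2.76 and -2.73 to -4.25, -4.33, -4.40 and -4.20, a difference of -1.35 ± 0.12 (adjusted p = 0.000164). The Ndst4 ring (chr3:125697905-125714659, a heparan sulfate sulfotransferase) differed by -1.36 ± 0.21 (adjusted p = 0.00145) and the Col19a1 ring (chr1:24559654-24575459, a collagen) by -1.42 ± 0.19 (adjusted p = 0.000741).

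Rings of Fggy and Dpyd, the latter encoding the first enzyme of pyrimidine breakdown, differed by -1.49 ± 0.30 and -1.46 ± 0.31 (adjusted p = 0.00508 and 0.00663). Their host messenger RNAs, at -0.03 and 0.15, were not called. Rings of Zbbx, Creb5, Tmem266, Ntng1 and Nbas were well above background on no contusion array, and were at least 2.21-fold, 1.34-fold, 2.16-fold, 1.61-fold and 1.18-fold lower. These bounds use the control mean. For Zbbx that mean was raised by control replicate 4, at -2.14 against -4.86 to -4.67 on the other controls. The Zbbx call was lost with the slide as a block (adjusted p = 0.0961) and when 1 array was left out (adjusted p up to 0.0782). The Dgkg ring, at -1.36 ± 0.37 (adjusted p = 0.0201), was likewise lost with the slide as a block (adjusted p = 0.0775) and without 1 array (adjusted p up to 0.0531). Without contusion replicates 1 and 2 their adjusted p was 0.0882 and 0.0613.

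**Figure D2:**
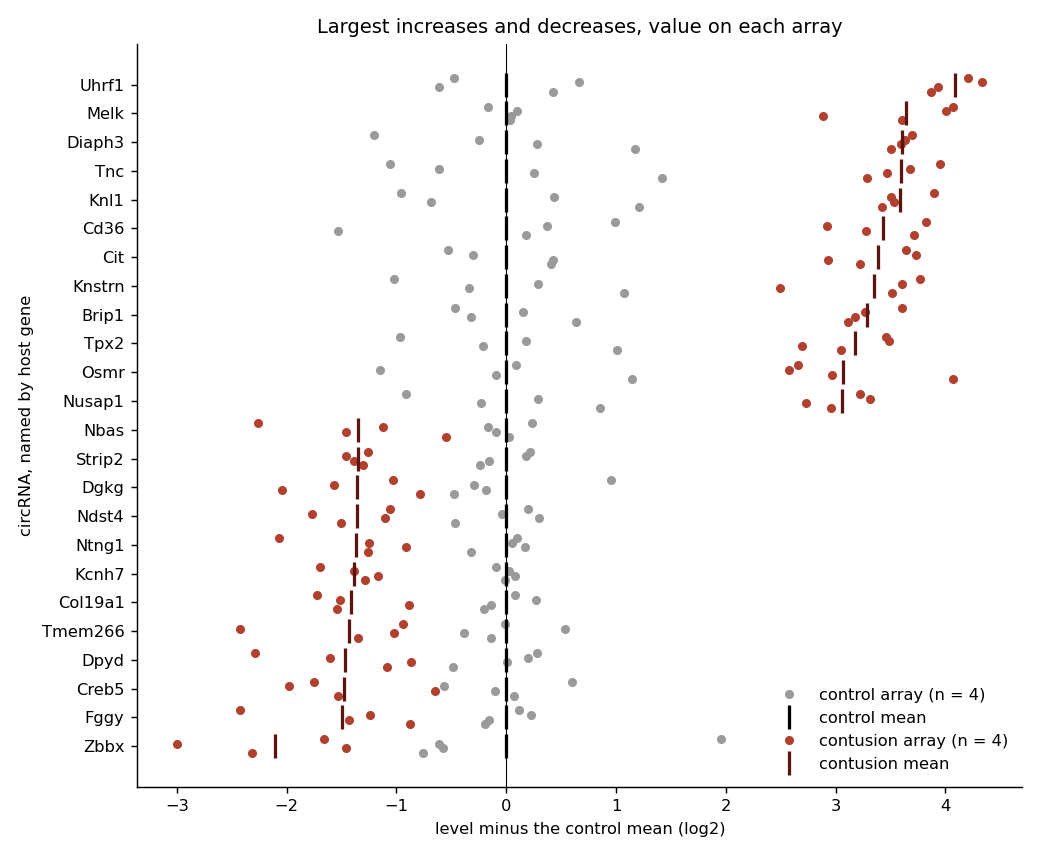
Level on each array minus the control mean (log2) for the 12 largest increases and the 12 largest decreases, named by host gene, with control arrays in grey, contusion arrays in red and group means as vertical bars. For Uhrf1, Tnc, Cd36, Knstrn, Tpx2 and Nusap1 the increases were 3.06 to 4.09. Of these, only Tpx2 and Nusap1 were well above background on every control array, so that the distances of Uhrf1, Tnc, Cd36 and Knstrn rest in part on control signals near background. The other 6 increases, and the decreases of Zbbx, Creb5, Tmem266, Ntng1 and Nbas, had 1 group with no array well above background, so that the plotted distance is no measured change.

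Host genes were grouped in 14 lists of 928 genes by known function, 20 of them in more than 1 list, and 14.5% higher and 27.5% lower among all 14173 circRNAs tested is the background for their counts. The strongest loss was among rings of ion channel and receptor genes, where 244 of 298 were called lower (81.9%) and 7 higher, with a median of -0.61. The Ano3 ring, of a scramblase related to calcium-activated channels, fell from between -0.93 and -0.70 to between -2.02 and -1.90 (-1.17 ± 0.07, adjusted p = 8.26e-05). The Glrb ring, of the beta subunit that anchors glycine receptors, fell from 2.50 to 2.70 down to 1.52 to 1.64 (-1.03 ± 0.07, adjusted p = 9.33e-05). The Scn8a ring (chr15:101008053-101018524), of a sodium channel of nodes and initial segments, fell by 0.89 ± 0.06 on the log2 scale (adjusted p = 0.000112). Higher were a ring of Itpr2, an intracellular calcium release channel (0.50 ± 0.08, adjusted p = 0.00233), a ring of Trpm3 (0.32 ± 0.07, adjusted p = 0.00541) and 2 rings of Slc8a1, described further on. Of 8 Trpm3 rings 1 was higher and 4 were lower, and of 6 Itpr2 rings 4 were higher and none lower.

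Rings of synaptic scaffold and release genes were lower in 247 of 376 cases (65.7%) and higher in 9, with a median of -0.43. The Rims1 ring, of an active zone organiser, lay between 0.58 and 0.69 in controls and between -0.31 and -0.16 after contusion (-0.87 ± 0.06, adjusted p = 0.000105). The Cadps ring (a vesicle priming factor) changed by -0.94 ± 0.07 (adjusted p = 0.000112) and the Syt1 ring (the calcium sensor of release) by -0.89 ± 0.07 (adjusted p = 0.000124). Against the list's direction, 1 named ring each of Kalrn, Stxbp5 and Shank3 was higher, by 0.66 ± 0.13 (adjusted p = 0.00562), 0.35 ± 0.08 (adjusted p = 0.00759) and 0.51 ± 0.12 (adjusted p = 0.0123). Of 24 Kalrn rings 2 were higher and 15 lower, and of 30 Stxbp5 rings 2 were higher and 23 lower. The messenger RNAs of all these hosts were called lower, by 0.31 to 0.72 for Kalrn, Stxbp5 and Shank3. In these lists 40 of 50 synaptic and 39 of 49 channel host messenger RNAs were called lower, and the neuron markers were lower on the same arrays. The part of the markers in these counts was not tested.

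Axon guidance and adhesion genes gave 107 lower and 18 higher of 211 rings (median -0.31), and microtubule and axonal transport genes 108 lower and 14 higher of 233 (median -0.22). In the former, rings of the neural surface proteins Cntnap5a, Dscam and Cdh18 fell (-0.94 ± 0.07, -0.95 ± 0.07 and -0.83 ± 0.07, adjusted p = 0.000132, 0.000132 and 0.000155). Rings of the neural adhesion molecules Nrcam (chr12:44549874-44566869) and Chl1 rose, by 0.88 ± 0.06 (adjusted p = 9.91e-05) and 0.92 ± 0.08 (adjusted p = 0.00015), as did the ring of Nrp2, a semaphorin and VEGF receptor (0.93 ± 0.09, adjusted p = 0.000188). In the transport list, rings of Ank3 (the scaffold of the initial segment), Mark1 and Kif5c (a kinesin) fell by 0.68 ± 0.07, 0.61 ± 0.07 and 0.70 ± 0.08 on the log2 scale (adjusted p = 0.000323, 0.000345 and 0.000368). A named ring each of Myo10, Myo5b and Ank2 rose by 0.74 ± 0.07, 0.35 ± 0.07 and 0.46 ± 0.10 (adjusted p = 0.000192, 0.00563 and 0.00632). Of 22 Ank2 rings 3 were higher and 7 lower. Without contusion replicates 1 and 2, the arrays with high muscle markers, 69 transport rings were called lower. That setting left 2 contusion arrays, and the count over all 10 to 50 kb rings fell too, from 3902 to 2810.

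Rings of cell division genes were higher in 59 of 94 cases (62.8%) and lower in 5, with a median of 0.77. The Brca1 ring (chr11:101529791-101540034, DNA repair) lay between -4.89 and -4.34 in controls and between -2.78 and -2.34 after contusion (2.15 ± 0.14, adjusted p = 9.67e-05). The Lmnb1 ring (a nuclear lamin) rose by 1.93 ± 0.13 (adjusted p = 9.67e-05). The lower ones included a second ring of Cit, given further on, and a ring of the cohesin subunit Stag1 (-0.27 ± 0.07, adjusted p = 0.0118). The Stag1 call was lost without contusion replicates 1 and 2 (adjusted p = 0.0759). Proliferation markers were higher on the same arrays, and their part in these counts was not tested.

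Phagocyte and microglia genes gave 79 higher and 15 lower of 138 rings (57.2% higher, median 0.44). The Cd44 ring (the hyaluronan receptor, chr2:102822208-102848782) rose from between -4.32 and -3.91 to between -2.35 and -2.22 (1.82 ± 0.09, adjusted p = 7.99e-05). Rings of Abca1, a cholesterol exporter, and Myo1e rose by 1.79 ± 0.18 and 0.92 ± 0.08 (adjusted p = 0.000236 and 0.000149). Rings of Prkcb and Lrch1 fell by 0.46 ± 0.08 and 0.28 ± 0.06 on the log2 scale (adjusted p = 0.00228 and 0.00861). The Lrch1 call was lost without contusion replicates 1 and 2 (adjusted p = 0.0746). The Slc8a1 rings that fell, described further on, belong to this list and to the channel list. Macrophage markers were higher on the same arrays, and their part in these counts was not tested.

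Matrix and adhesion genes gave 135 higher and 15 lower of 301 rings (44.9% higher, median 0.35). A second Tnc ring (chr4:63971214-64006442), measured on all arrays, rose by 2.13 ± 0.18 (adjusted p = 0.000149), the Itgav ring (an integrin subunit) by 0.94 ± 0.08 (adjusted p = 0.000158) and the Tns3 ring (tensin 3, chr11:8530872-8541231) by 1.02 ± 0.08 (adjusted p = 0.00014), while the Tns3 messenger RNA, at 0.17, was not called. Rings of Tln2 and Col25a1 fell by 0.53 ± 0.07 and 0.41 ± 0.07 on the log2 scale (adjusted p = 0.00065 and 0.00196).

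The remaining lists moved less or in both directions. Of 74 oligodendrocyte lineage rings 28 were lower and 13 higher (median -0.12), with Edil3 at -0.55 ± 0.07 (adjusted p = 0.000557), Frmd5 at -0.42 ± 0.06 (adjusted p = 0.00145), Dnm2 at 0.59 ± 0.08 (adjusted p = 0.000927), Slc44a1 at 0.44 ± 0.08 (adjusted p = 0.00366) and Sox6 at 0.49 ± 0.10 (adjusted p = 0.00616), and 16 were lower without contusion replicates 1 and 2. Of 112 astrocyte and ependymal rings 23 were lower and 9 higher (median -0.08). Rings of Gpc5, of the glutamate transporter gene Slc1a2 and of the cilium gene Cfap54 fell (-0.90 ± 0.08, -0.55 ± 0.10 and -0.65 ± 0.10, adjusted p = 0.00018, 0.00267 and 0.00119), and rings of Nfib and Notch2 rose (0.46 ± 0.09 and 0.47 ± 0.11, adjusted p = 0.00344 and 0.00974). Of 44 vascular and mural rings 9 were higher and 6 lower (median 0.22). The Pecam1 ring, of an endothelial junction protein, rose by 1.12 ± 0.11 (adjusted p = 0.000245) and the Ptprb ring by 0.87 ± 0.14 (adjusted p = 0.00163). Rings of Ebf1, Dach1 and Ptprm fell by 0.48 ± 0.06, 0.85 ± 0.16 and 0.25 ± 0.07 on the log2 scale (adjusted p = 0.000421, 0.00415 and 0.0282). Endothelial markers lay at 5.38 to 5.74 in controls and 6.10 to 6.33 after contusion (3 of 4 called higher), and 5 of 5 red blood cell markers were called higher. Their part in these values was not tested. The Ptprm call was lost when 1 array was left out (adjusted p up to 0.0766) and without contusion replicates 1 and 2 (adjusted p = 0.201).

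Chromatin and transcription genes held 404 rings, of which 70 were lower and 24 higher (median -0.05), and 38 were lower without contusion replicates 1 and 2. Rings of Baz1a and of the histone methyltransferase gene Ezh2 rose by 1.67 ± 0.14 and 0.99 ± 0.09 (adjusted p = 0.000149 and 0.000185), and the Mef2c ring by 0.73 ± 0.07 (adjusted p = 0.000235). Rings of Med12l, Chd6 and Smarca2 fell by 0.55 ± 0.06, 0.57 ± 0.07 and 0.61 ± 0.09 on the log2 scale (adjusted p = 0.000362, 0.00051 and 0.000887). Of 323 rings of ubiquitin system genes 112 were lower and 11 higher (median -0.14). The Trim37 ring fell by 0.81 ± 0.07 (adjusted p = 0.000149), Mycbp2 by 0.66 ± 0.07 (adjusted p = 0.000257) and Ubr3 by 0.50 ± 0.07 (adjusted p = 0.00072), while a named ring each of Smurf2, Usp24 and Ube2k rose by 0.37 ± 0.09, 0.29 ± 0.07 and 0.25 ± 0.07 (adjusted p = 0.0103, 0.0147 and 0.0209). These 3 increases were lost without contusion replicates 1 and 2, at adjusted p = 0.0839, 0.100 and 0.0524, and that of Ube2k also when 1 array was left out (adjusted p up to 0.0573). Of 10 Smurf2 rings 1 was higher and 3 were lower. Of 45 rings of skeletal muscle genes 6 were lower and 1 higher (median 0.07). A Dmd ring (dystrophin, also made in neurons and glia) fell by 0.79 ± 0.07 (adjusted p = 0.000157). Of 15 Dmd rings 5 were lower and none higher (median -0.06). The Myh7 ring, with no contusion array well above background, was called lower. The Myom3 ring was at 0.27 ± 0.07 (adjusted p = 0.0188). The Myom3 call was lost with the slide as a block (adjusted p = 0.0631).

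The genes known to act on circRNA formation or decay were examined both as hosts and as messenger RNAs. Among their own 128 rings, 43 were lower and 12 higher (median -0.13). Rings of the neuronal splicing factors Rbfox3 and Rbfox1 and of the RNA editing enzyme gene Adarb1 fell, by 1.18 ± 0.10, 0.74 ± 0.09 and 0.62 ± 0.07 on the log2 scale (adjusted p = 0.000165, 0.000432 and 0.000297). Rings of G3bp1 and Hnrnpm rose by 0.59 ± 0.08 and 0.50 ± 0.08 (adjusted p = 0.000684 and 0.00163). The Dhx9 ring was at 0.42 ± 0.11 (adjusted p = 0.0183), and at an adjusted p of 0.0694 with the slide as a block. Of 64 messenger RNAs in the list 18 were higher and 20 lower, against 25.8% and 25.4% of all messenger RNAs tested. Ddx39a, a helicase of RNA export, measured 1.99, 1.92, 1.85 and 1.92 in controls and 2.97, 2.76, 2.84 and 3.01 after contusion (0.98 ± 0.08, adjusted p = 0.000127). Pop1 (a subunit of RNase P and MRP), Nudt21 (a 3′ end processing factor) and Igf2bp3 were higher by 0.63 ± 0.07, 0.61 ± 0.07 and 1.36 ± 0.14 (adjusted p = 0.000265, 0.000433 and 0.000284). Rbfox3 and Elavl1 were lower by 0.97 ± 0.09 and 0.52 ± 0.06 (adjusted p = 0.000188 and 0.000474). These 6 were picked for the smallest adjusted p among the 64. Their groups did not overlap, which that choice favours.

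Rings of 1 gene tended to move together. The 14173 tested rings lay in 3641 host genes, of which 1335 had a single ring and 957 had at least 5. Of the 957, 670 had called rings of 1 direction only, 52 of both directions and 235 none. Every ring was called lower in 74 hosts and higher in 32. Among the former were Hecw1 (17 rings, median -0.70), Tasp1 (16, -0.61), Nbea (15, -0.55) and Ppp3ca (14, -0.62), and among the latter Fn1 (16, 1.84), Snx6 (13, 0.39), Epb41l2 (10, 0.58) and Myof (10, 2.03). Rings of a gene share its transcription and often exons, so they are not independent observations.

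The 6 hosts with the most tested rings differed from each other. Ryr2, an intracellular calcium release channel on chromosome 13, had 50 tested rings between -0.92 and -0.32, all called lower, and its messenger RNA was at -0.92 ± 0.09. The median ring lay 0.78, 0.60, 0.73 and 0.73 log2 units below the control mean on contusion replicates 1 to 4. The Ryr2 ring shown above was the lowest, at -0.92 ± 0.13 (adjusted p = 0.000866), and 13 of the 51 Ryr2 probes shared a run of 40 bases with another of them. Ttll5, a tubulin glutamylase, had 25 of 39 called lower and none higher, between -0.53 and 0.07. Ptk2, focal adhesion kinase, had 10 of 48 called higher and none lower, and 3 with the slide as a block. Of the 51 Ptk2 probes 34 shared such a run. Utrn, the dystrophin relative utrophin, had no call among 39 rings. Asap1 had 3 higher and 4 lower among 36, between -0.26 and 0.50, while its messenger RNA was at -0.48 ± 0.13 (adjusted p = 0.017). Dlg1, a synaptic scaffold, had 1 call among 35 rings, at 0.32 ± 0.09 (adjusted p = 0.027), which was lost with the slide as a block (adjusted p = 0.0965).

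**Figure D3:**
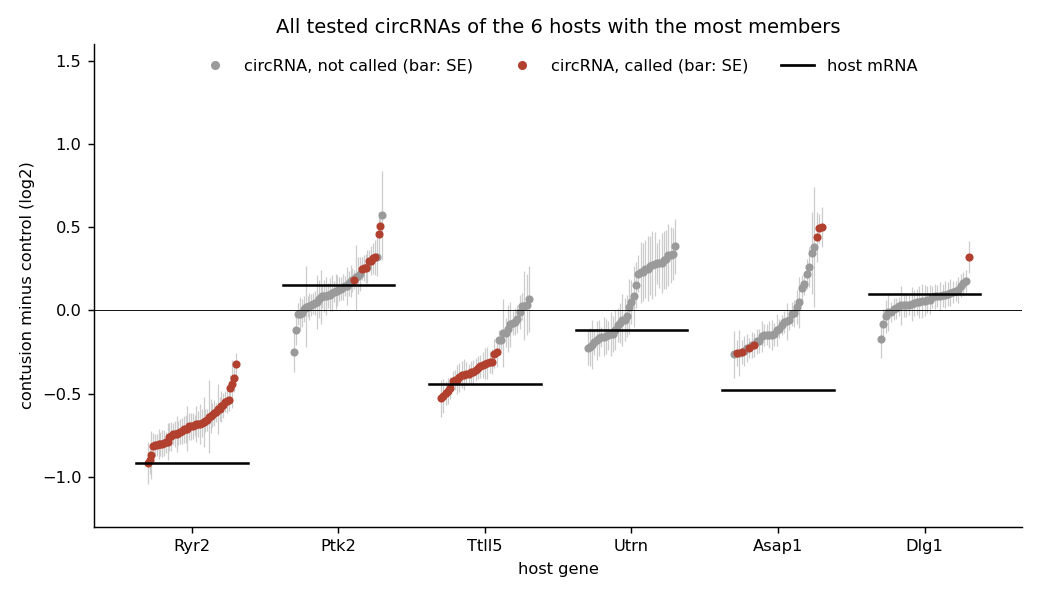
Contusion minus control (log2) of every tested 10 to 50 kb circRNA of the 6 hosts with the most of them, in increasing order within each host, with SE bars, called circRNAs in red and the host messenger RNA as a black line. All 50 Ryr2 circRNAs lay below 0 and were called, whereas none of the 39 of Utrn was.

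Each circRNA inside 1 gene was then set against the messenger RNA of that gene on the same array. Over 13734 circRNAs of 3597 hosts the changes of ring and messenger RNA correlated at a Pearson r of 0.777 (Spearman rho 0.744), with a slope of 0.675, and at 0.779 with 1 ring per host. These points share their arrays and, in many cases, exons. Both were called lower in 3107 cases and both higher in 1477. They were called in opposite directions in 59 cases with the ring lower and in 67 with the ring higher. For 2091 rings that were not called the messenger RNA was called lower, and for 1118 it was called higher. By probe layout, r was 0.799 where the shorter side of the junction had 9 to 11 bases (n = 1324), 0.749 with 12 to 19 bases (n = 452) and 0.772 with 20 to 30 bases (n = 614). The slopes were 0.704, 0.655 and 0.677.

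The difference between the 2 changes, tested per circRNA, was called above the host messenger RNA for 936 (6.82%) and below it for 748 (5.45%), against 7.50% and 5.33% of circRNAs of other spans. In 749 of the 936 the messenger RNA was called lower after contusion, and in 515 of the 748 it was called higher. Over all 13734 pairs it was called lower beside 3107 rings called lower, 2091 not called and 67 called higher. It was called higher beside 59, 1118 and 1477 rings, in the same order. The messenger RNA is subtracted in this difference, so its own fall or rise enters these counts. The counts above and below the host moved with single arrays. Without control replicate 1 there were 1624 above, without control replicates 2 or 4 there were 539 or 529, and without contusion replicates 2, 3 or 4 there were 597, 604 or 560. Below the host, the counts were 477 without control replicate 4 and 492 without contusion replicate 3. With the slide as a block 567 were above. With normexp background correction 3567 were above and 2081 below.

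**Figure D4:**
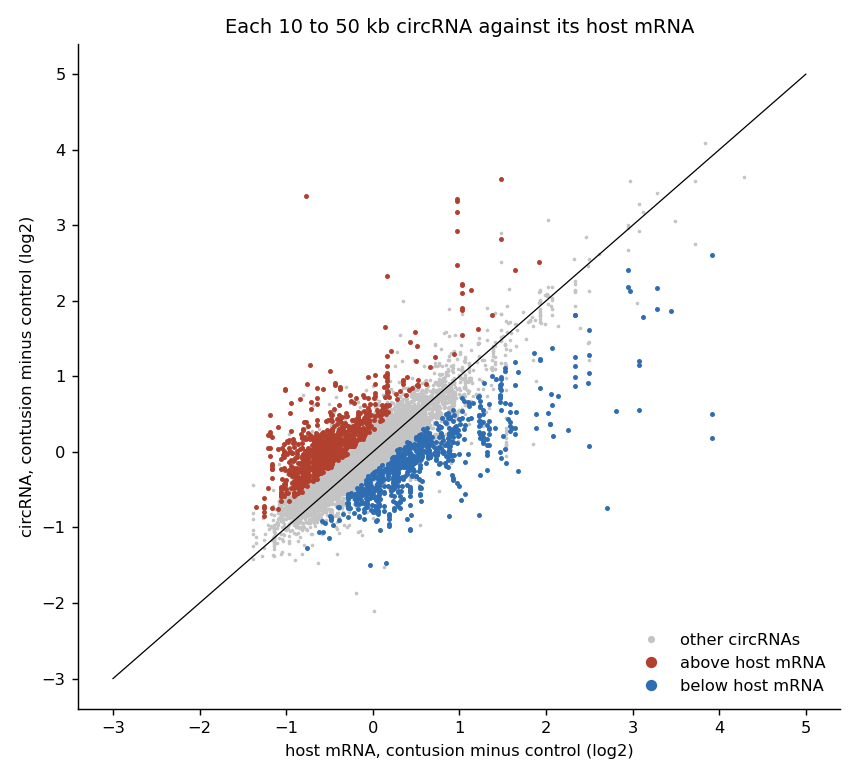
Contusion minus control (log2) of each 10 to 50 kb circRNA against that of its host messenger RNA, with the line of equal change, 936 circRNAs called above the host in red, 748 called below it in blue and the rest in grey. Most points follow the line with a slope below 1, and single points at the top stand for circRNAs such as those of Cit and Knstrn.

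Rings that rose above their messenger RNA included a Cit ring (chr5:115859198-115873994). It was at -6.63, -6.61, -7.34 and -7.56 in controls, below the background limit, and at -3.82, -4.10, -3.30 and -3.39 after contusion, so that the ring was at least 3.52-fold higher, while Cit messenger RNA fell by 0.77 ± 0.07 on the log2 scale. The Runx1 ring (chr16:92613599-92644345, a transcription factor of blood cells and microglia) was well above background on no control array and was at least 3.98-fold higher. Runx1 messenger RNA, at 0.17 ± 0.12, was not called. The ring's excess over the messenger RNA lost the call with the mean of all Runx1 messenger RNA probes (adjusted p = 0.0528) and with normexp background correction (adjusted p = 0.162). The Diaph3 ring, also with no control array well above background, was called above its messenger RNA, but its difference turned to -0.754 with normexp. For Knstrn and Slc8a1 the excess was 2.38 ± 0.31 and 1.85 ± 0.20 (adjusted p = 0.00141 and 0.000553). For Cpa6, whose groups overlapped, it was 1.88 ± 0.49 (adjusted p = 0.0334), and the adjusted p was 0.062 with the slide as a block.

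Rings that stayed behind a rising messenger RNA included a ring of Dtl (chr1:191546491-191563176, an adaptor of a replication-linked ubiquitin ligase). It was at -0.15, -0.25, -0.18 and -0.22 in controls and -0.11, 0.02, 0.01 and 0.03 after contusion. The groups were apart by a narrow margin, at 0.19 ± 0.06 (adjusted p = 0.0411, and 0.128 with the slide as a block), while Dtl messenger RNA rose by 3.92 ± 0.26, a ring minus messenger RNA difference of -3.73 ± 0.24 (adjusted p = 7.66e-05). Other Dtl rings with the same start were also called higher and below the messenger RNA. That at chr1:191546491-191558134 was at 0.50 ± 0.14 (adjusted p = 0.0254, and 0.0659 with the slide as a block). That at chr1:191546491-191556887 had no control array well above background. Rings of Brip1 (chr11:86074279-86108888), Frrs1 and Ltbp2 lagged by -2.51 ± 0.23, -2.42 ± 0.21 and -2.26 ± 0.43 (adjusted p = 0.000287, 0.00026 and 0.00819). The Phex ring was at -0.74 ± 0.24 (adjusted p = 0.0405, and 0.147 with the slide as a block) against a rising messenger RNA, a difference of -3.44 ± 0.36 (adjusted p = 0.000541). The Pola1 ring was well above background on no contusion array and was not called (adjusted p = 0.051), while Pola1 messenger RNA rose by 1.23 ± 0.14 (adjusted p = 0.000375).

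Within some genes the rings split by exon, and the following hosts were chosen after their values had been seen. Slc8a1 encodes a plasma membrane sodium-calcium exchanger known for a pair of mutually exclusive exons. The 4 Slc8a1 probes printed above combine 2 upstream exons, with capitals beginning CAAAACAATATC or GAAGATCATTACC, with 2 downstream exon ends, and a pair with the same upstream exon shares 52 bases. The rings beginning CAAAACAATATC were at -0.85, -0.96, -1.05 and -0.82 in controls and -1.63, -1.52, -1.61 and -1.36 after contusion for the shorter, and at -1.01, -0.85, -1.03 and -0.70 against -1.57, -1.42, -1.47 and -1.27 for the longer. They fell by 0.61 ± 0.08 and 0.54 ± 0.10 on the log2 scale (adjusted p = 0.000868 and 0.00355). The rings beginning GAAGATCATTACC were at -4.68, -4.89, -4.28 and -4.77 against -3.65, -4.25, -3.97 and -3.45, and at -3.96, -4.13, -4.11 and -3.42 against -3.33, -2.92, -3.10 and -2.95. They rose by 0.82 ± 0.19 and 0.83 ± 0.17 (adjusted p = 0.0104 and 0.0059), with no overlap between the groups for any of the 4 rings. Of the other 5 Slc8a1 rings 4 were called lower, between -0.63 and -0.41, and the messenger RNA was at -1.02 ± 0.14.

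Cit encodes citron, made as a long form with a kinase domain and as a shorter form without it that is enriched in neurons. The ring from 28.6 to 63.6 kb after the gene start (chr5:115873852-115908821) was at 3.43, 3.52, 3.20 and 3.44 in controls and 2.47, 2.46, 2.52 and 2.44 after contusion, a fall of 0.93 ± 0.08 on the log2 scale (adjusted p = 0.000163). The ring from 14.0 to 28.8 kb is the one described above that rose, and the ring from 1.12 to 17.8 kb was at 0.40 ± 0.13 (adjusted p = 0.0389, and 0.132 with the slide as a block). A ring from 1.06 to 41.6 kb was at -0.18 ± 0.06 (adjusted p = 0.0474, and 0.118 with the slide as a block). The 3 that were not called lay between -0.13 and 0.31. Of the 8 Cit probes 4 shared a run of 40 bases with another of them.

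In Ltbp1, a latent TGF-beta binding protein with a long and a short form, 13 of 20 rings were called higher and 1 lower. The lower one (chr17:75151265-75179204), 145.8 to 173.7 kb after the gene start, was at -0.84 ± 0.12 (adjusted p = 0.00116). All 13 higher rings began 173.6 kb or more after the gene start and lay between 0.43 and 1.89. Besides the lower ring, only a ring from 132.4 kb, not called (adjusted p = 0.994), began earlier. The rings at 1.89 and 1.53 each had 1 control array well above background. With the slide as a block 2 of the 13 lost the call (adjusted p = 0.0775 and 0.0709). Ltbp1 messenger RNA was at 0.88 ± 0.19 (adjusted p = 0.00653). Of the 21 Ltbp1 probes 8 shared a run of 40 bases with another of them.

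Diaph3 had 8 of 9 rings called higher, with a messenger RNA at 1.48 ± 0.14. The ring with no control array well above background was at least 5.39-fold higher, and the other 7 lay between 1.17 and 2.90. A pair of dim rings differed by 23 bases at their upstream exon: chr14:86810336-86835101 was at 2.90 ± 0.47 (adjusted p = 0.00173), with 1 control array well above background, and chr14:86810336-86835124 at -0.08 ± 0.34 (adjusted p = 0.878), with 3 control and 2 contusion arrays well above background. The difference between them was not tested. A ring at 1.17 ± 0.34 (adjusted p = 0.0248) had an adjusted p of 0.0769 with the slide as a block. All 16 rings of Fn1 (fibronectin) were called higher, between 0.84 and 2.15, with the messenger RNA at 1.93 ± 0.27, and 4 of their probes shared a run of 40 bases with another. All 5 Knstrn rings rose, by 2.47 to 3.35, above a messenger RNA at 0.97 ± 0.16.

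**Figure D5:**
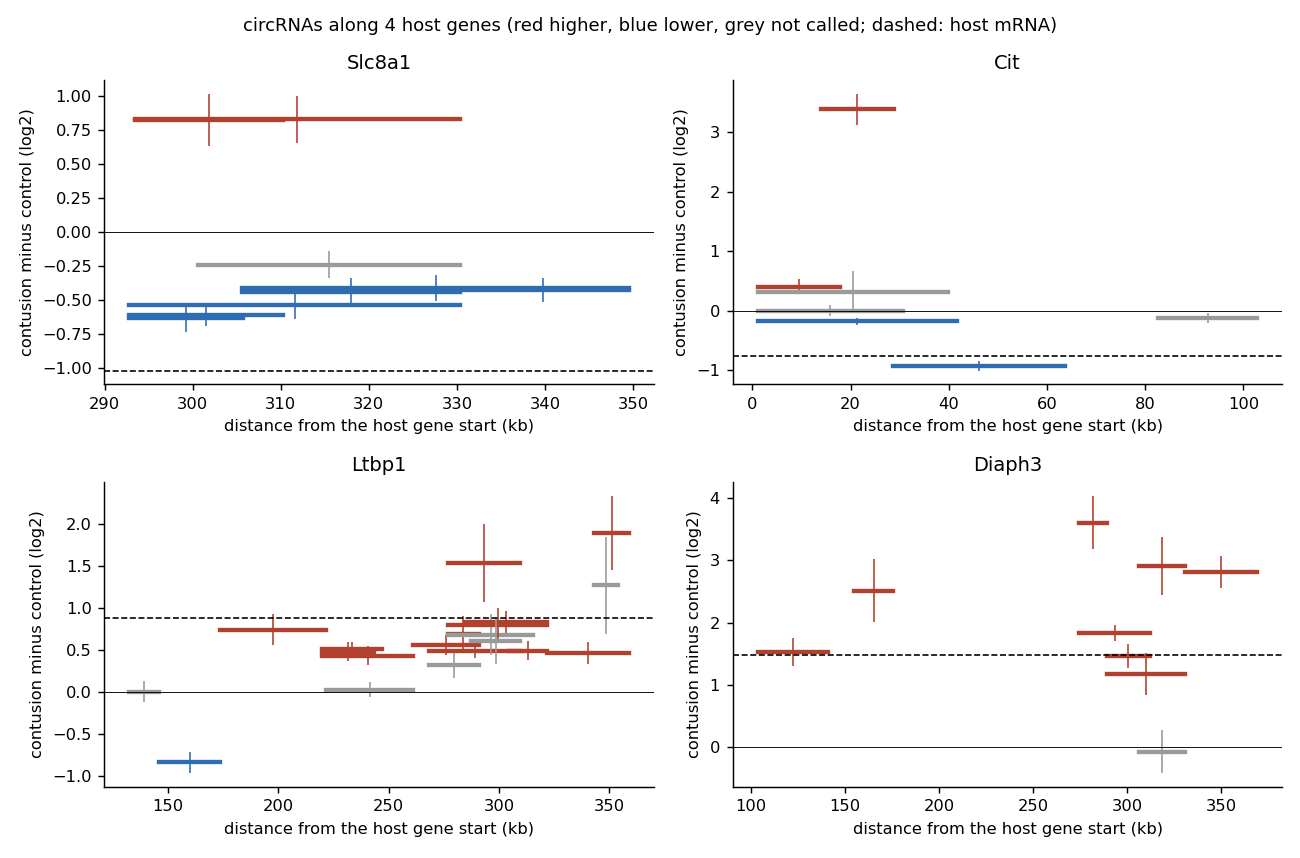
circRNAs of Slc8a1, Cit, Ltbp1 and Diaph3, each drawn from its first to its last base as distance from the host gene start in kb against its contusion minus control difference (log2, bar: SE), red where called higher, blue where called lower and grey where not called, with the host messenger RNA dashed. The 2 Slc8a1 circRNAs that begin at the same exon lie at 0.82 and 0.83, and all others of that gene lie below 0.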

How the data were processed

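The members and the gene lists were chosen with earlier results of these data known. The authors deposited one-colour scanner files, whose processed-signal column is an intensity with background and spatial corrections, from Feature Extraction 12.0.3.1 per the file headers (10.7 per the submitters' processing notes, which also name limma), and a table of log2 values. The table's columns have medians of 5.3993 to 5.4 and rank probes as the scanner values do, and its exact scale is not given in the sources used here. The main values were log2 of the processed intensity minus each array's 75th percentile. Control and outlier spots were left out. Features well above background on at least 4 of 8 arrays were fitted by group alone in limma 3.58.1 under R 4.3.3, using its lmFit and eBayes steps, with Benjamini-Hochberg adjustment over 89087 features at 0.05. The fits were tested on simulated data.

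A host is the only protein-coding GRCm38 gene that contains the circRNA, which held for 14780 of 15175 members. Of all circRNAs 97.4% lay inside such a gene, against 35.9% after a shift of 1e+06 bases. Of 22694 mRNA accessions 99.1% had a symbol, and the brightest probe stood for a gene. Ring minus mRNA differences were taken per array and adjusted over 34306 pairs. The named circRNAs were the 12 largest called changes in each direction without overlap, the 6 hosts with the most members, the 6 largest differences from the host in each direction and, per list, up to 3 smallest p-values in each direction, 1 per host, with 6 processing mRNAs; others are said to be chosen after their values were seen. The design counts 8 mice, but no label ties an array to an animal, so p-values measure the spread between these samples. Header barcodes put control 2, 3 and 4 with contusion 1 on slide 1 and the rest on slide 2. The number of arrays limits the precision (median SE 0.0895).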

Additional observations from a re-analysis of the deposited data

Results flagged for a closer look

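Of 242 groups of 4 arrays examined among the named circRNAs, 9 held an array whose gap to its nearest neighbour took up most of the group's range, where chance gives about 1 in 20 groups. Control replicate 4 stood at -2.14 for the Zbbx ring, with the others between -4.86 and -4.67, and at -2.60 for a Ryr2 ring, with the others between -2.91 and -2.87. Control replicate 2 stood at -2.64 for the Myo10 ring (others -2.50 to -2.48) and at 0.176 for the Ank3 ring (others -0.04 to -0.03). Control replicate 3 stood at -3.23 for a Brip1 ring (others -3.05 to -3.04). Contusion replicate 1 stood at -0.112 for a Dtl ring (others 0.01 to 0.03) and at -0.551 for the Ank3 ring (others -0.71 to -0.69). Contusion replicate 3 stood at -0.350 for the Edil3 ring (others -0.19 to -0.18), and contusion replicate 4 at -1.94 for a Mef2c ring (others -2.17 to -2.14).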

How the results depend on the processing

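Counts of called 10 to 50 kb circRNAs stayed within 1.5 times of 2048 higher and 3902 lower under the other scalings, filters and blocks. They were 1579 and 3474 with the slide as a block and 2389 and 3347 with the circRNA median as the centre, and leaving out 1 array gave 1625 to 2106 and 3206 to 3764. Without contusion replicates 1 and 2, a setting chosen after seeing the data, there were 1461 and 2810. A 2-fold limit gave 276 and 92 (675 and 120 for other spans), and 1 circRNA per host 656 and 872. Counts against the host messenger RNA moved most. With normexp background correction they were 3567 above and 2081 below (other spans 5259 and 3214), and the Diaph3 difference reversed to -0.754. With the slide as a block 567 were above (other spans 960). Leaving out 1 array gave 529 to 1624 above and 477 to 753 below (other spans 862 to 2504 and 762 to 1101), with 556 and 382 without contusion replicates 1 and 2 (other spans 954 and 617). The cause was not tested. Without those replicates the transport, oligodendrocyte and chromatin lists had 69, 16 and 38 lower. The synapse, channel and ubiquitin lists had 204, 218 and 79, against 247, 244 and 112 with all arrays. Replicate numbers are not said to pair the arrays. Arrays of the same number correlated at -0.302 to -9.31e-05 in their deviations from the group means. They always lay on different slides, so these values cannot settle whether they were paired. A replicate block gave 1553 higher and 3073 lower, and 371 above and 374 below the host (other spans 634 and 620). Of 2033 values of 121 named circRNAs under alternatives 78 lost a call, 9 gained one and 0 reversed. The scalings moved the median of all features between -0.06 and -0.01. Signal over background limits the dim rings, for which only a bound could be given.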
